A study of Mus musculus with 12 samples.

Results

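The response of macrophages to an inhibitor of diacylglycerol acyltransferase 1 (DGAT1) was compared between resting cells and cells under inflammatory activation, gene by gene, to find which genes answered the inhibitor differently in the 2 states. RNA was sequenced from bone marrow-derived macrophages of C57BL/6 mice, grown in CSF-1 for 7 days, in 4 groups of 3 libraries, and all 12 of the 12 libraries of the series enter the comparison. Resting macrophages (M0) received no stimulus and stayed in medium with CSF-1 over the 18 h in which the other groups were stimulated or treated. Inflammatory macrophages received IFNγ at 50 ng/ml together with LPS at 20 ng/ml over 18 h. In each state a further group was exposed over the same 18 h to T863 at 50 μM, which inhibits DGAT1 (DGAT1i). Another compound number stands in the description of 2 of the 3 libraries of M0 with DGAT1i, and these were read as T863 from their other labels. No allele or transgene separates the groups, and 1 compound at 1 dose and 1 time was used, so that effects of losing DGAT1 activity and other effects of T863 cannot be told apart. Replicates carry only a number in the labels, and p-values measure the spread between these libraries.

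In what follows the response is the log2 fold change with DGAT1i against without it in the same state, and the difference between the responses is the response in IFNγ + LPS minus that in M0 (the interaction term of the model). A negative difference means a lower response in IFNγ + LPS. Levels are in CPM, the reads of a gene relative to all counted reads of its library, after scaling by edgeR's TMM method, and a gene was called where edgeR's quasi-likelihood test gave an adjusted p under 0.05 by Benjamini-Hochberg over 11760 genes.

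DGAT1 carries out the last step of triglyceride (TG) synthesis, the transfer of a fatty acid to diacylglycerol, and TG is stored in lipid droplets (LDs). Macrophages exposed to IFNγ and LPS turn to glycolysis, build up LDs, stop dividing and induce cytokines, antigen presentation and antimicrobial genes. Several stress programs can be read from mRNA. ATF4 is a transcription factor that is translated when eIF2α is phosphorylated and raises genes of amino acid supply and tRNA charging. NRF2 raises genes of glutathione and iron handling under oxidative or electrophilic stress.

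Libraries held 4996014 to 6621671 counted reads, so that 1 CPM was worth 4.28 to 7.58 reads, and r between replicates on the log2 CPM scale was 0.988 to 0.992. All 8 macrophage markers examined were detected, and 5 of them had a called difference, beside 18.5% of all 11760 genes tested. Their summed level was 13131 to 14358 CPM in M0, 16054 to 18075 CPM in M0 with DGAT1i, 8323 to 8980 CPM in IFNγ + LPS and 7923 to 8891 CPM in IFNγ + LPS with DGAT1i. The markers of T, B, mast, erythroid and stromal cells summed to at most 5.39 CPM in any library. Markers of neutrophils and their precursors also moved with the comparison. Their summed level of 10 genes was 32.0 to 39.3 CPM in M0, 22.9 to 29.2 CPM in M0 with DGAT1i, 15.2 to 25.5 CPM in IFNγ + LPS and 63.0 to 81.0 CPM in IFNγ + LPS with DGAT1i, with Ly6g and Retnlg at 0 in all libraries. Dendritic cell markers, 5 genes, summed to 0.133 to 0.835 CPM in M0, 0.264 to 0.710 CPM in M0 with DGAT1i, 8.05 to 11.2 CPM in IFNγ + LPS and 3.499 to 6.77 CPM in IFNγ + LPS with DGAT1i. The sums of 4 endothelial markers were at most 3.06 CPM in M0 with and without DGAT1i, 16.1 to 20.9 CPM in IFNγ + LPS and 7.82 to 12.6 CPM in IFNγ + LPS with DGAT1i. Their part in the results below was not tested. In bulk RNA, fewer cells of a kind and less RNA per cell cannot be told apart.

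The 2 responses differed for 2171 of 11760 genes (18.5%). Of these, 1019 had the higher response in IFNγ + LPS (8.66% of genes tested) and 1152 the lower (9.8%). With scaling by library size only, the split turned to 1229 higher and 882 lower. DGAT1i changed 3508 genes (29.8%) in IFNγ + LPS and 2869 (24.4%) in M0, and 1151 genes were called in both states. Of these 1151, 875 moved the same way and 276 moved in opposite directions. No libraries are shared between the 2 responses. Across genes they correlated with r = 0.215 (Spearman's rho 0.214, 11760 genes, which are not independent replicates), a description only.

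The 2171 genes fall into classes by which responses were called. The opposite class, in which both responses and their difference were called and the directions differ, held 276 genes (2.35%). A further 1031 genes (8.77%) responded in IFNγ + LPS and not in M0, with 444 higher and 587 lower. Another 589 (5.01%) responded in M0 and not in IFNγ + LPS, with 264 higher and 325 lower. In 161 genes both responses had the same direction but different sizes, the larger being in IFNγ + LPS for 106 (0.901%) and in M0 for 55 (0.468%). For 114 genes (0.969%) only the difference was called. A response that misses the threshold is not shown to be absent. The 95% interval of the uncalled response lay within a 1.5-fold change in either direction for 912 of the 1031 genes and 464 of the 589.

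**Figure D1:**
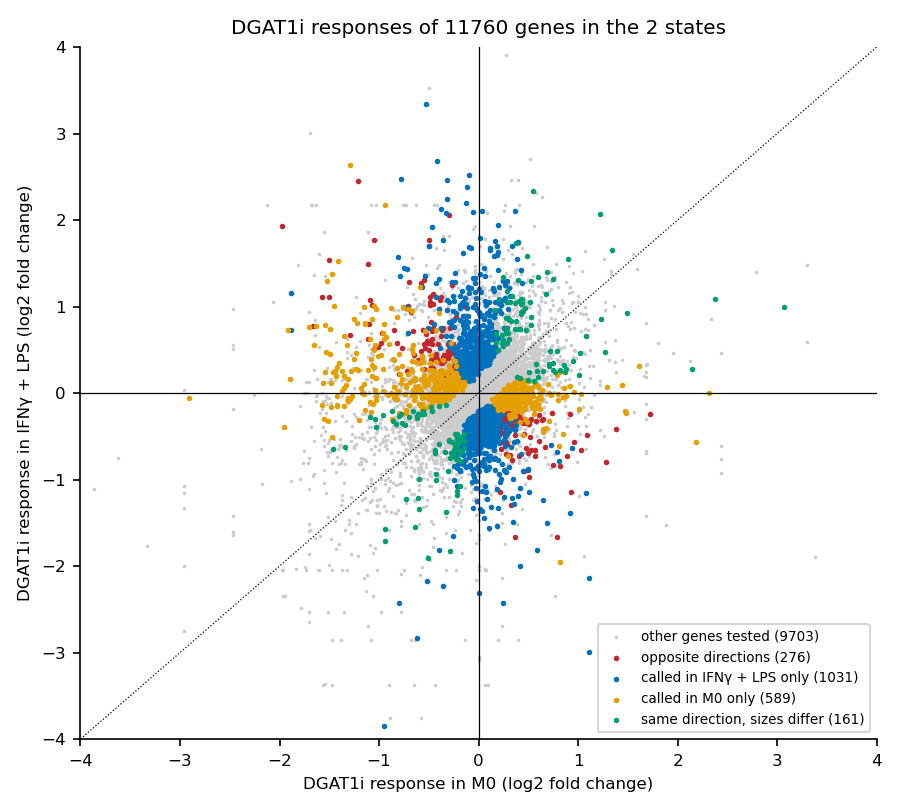
Each point is 1 of 11760 genes, with the DGAT1i response in M0 on the x axis and in IFNγ + LPS on the y axis (log2 fold changes, 3 libraries against 3 in each state). Colours mark the classes of genes whose responses differed, the dotted line marks equal responses, and 8 genes lie outside the axes. The 276 genes of the opposite class lie in the upper left and lower right quadrants, and the 1031 and 589 genes called in a single state lie along the axes.

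Most members of the opposite class moved by small amounts. Both responses passed 1.5-fold for 28 of the 276 genes and 2-fold for 9. The 3 libraries with and without DGAT1i did not overlap in either state for 251 of the 276, against 5.2% of all genes tested that were apart in both states with opposite directions. A gene of this class had to differ in both states to be in it, so this count describes the class and does not test it. DGAT1i lowered 150 of the 276 genes in IFNγ + LPS and raised them in M0 (1.28% of genes tested), and 126 went the other way (1.07%). The untreated level was lower in IFNγ + LPS than in M0 for 17 of the 150 and for 111 of the 126, beside 5841 of all 11760. In 244 of the 276 each response thus pointed from its own untreated level toward that of the other state. Among all genes called, 2179 of 3508 responses in IFNγ + LPS and 2102 of 2869 in M0 pointed that way. The untreated libraries set both the starting level and the response in these counts, which are given as a description.

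Sh3bp5, which encodes an exchange factor for Rab11 that binds the kinases BTK and JNK (chromosome 14 from 31359880 to 31436078), had the largest smaller response among the 150 genes that fell in IFNγ + LPS and rose in M0. Its level was 37.8, 35.0 and 37.0 CPM in M0 and 64.0, 67.0 and 63.2 CPM in M0 with DGAT1i. Under IFNγ + LPS it stood at 51.0, 55.3 and 50.0 CPM without and 27.8, 29.4 and 30.4 CPM with DGAT1i. No libraries overlapped in either state, and the activated level with DGAT1i lay below that of untreated M0. The responses were 0.82 (SE 0.08) in M0 and -0.84 (SE 0.09) in IFNγ + LPS, and their difference was -1.66 (SE 0.12, adjusted p = 7.25e-16). Its exons share 116 bases with Capn7 on the other strand, and reads of such a pair cannot be told apart if strand was not used in counting.

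Several of the other genes named by the same rule encode membrane proteins of myeloid cells. Clec4a1, a C-type lectin receptor, rose from 6.68, 5.19 and 5.71 CPM to 7.97, 9.80 and 11.6 CPM in M0. In IFNγ + LPS it fell from 36.8, 39.6 and 43.8 CPM to 19.1, 22.5 and 26.4 CPM (difference -1.57, SE 0.21, adjusted p = 7.10e-08). Ms4a6c, a membrane protein of the 4-pass MS4A family, rose from 59.0, 55.4 and 64.0 CPM to 94.2, 101 and 87.9 CPM in M0 and fell from 583, 567 and 523 CPM to 379, 358 and 348 CPM in IFNγ + LPS. Its family member Ms4a6b changed alike, from a mean of 22.4 to 33.1 CPM and from 337 to 204 CPM. The differences were -1.29 (adjusted p = 1.58e-16) and -1.29 (adjusted p = 3.69e-12). Klra2, an inhibitory lectin-like receptor, Itgal, the αL chain of the integrin LFA-1, Arl5c, a small GTPase, and Hist3h2a, a histone H2A gene, were the remaining members, with differences between -1.69 and -1.23. These 4 were less firm. Their response in M0 missed the threshold without M0 replicate 2 for Klra2 (adjusted p = 0.0613), without M0_DGAT1i replicate 1 for Arl5c (adjusted p = 0.0799), without M0_DGAT1i replicate 2 for Hist3h2a (adjusted p = 0.0542), and for Itgal without M0 replicate 1 or 2 or M0_DGAT1i replicate 1 or 2 (adjusted p = 0.0526 to 0.0977).

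Among the 126 genes that rose with DGAT1i in IFNγ + LPS and fell in M0, 5 of the 8 named by the rule were cell cycle or histone genes that were nearly silent in activated cells. Hmmr, a spindle protein, fell from 49.8, 48.3 and 45.4 CPM to 14.3, 16.3 and 20.1 CPM in M0. In IFNγ + LPS it rested on 11 reads over 3 libraries without and 29 with DGAT1i. E2f2, a transcription factor of S phase, had 22 and 48 such reads, and the histone genes Hist1h3f, Hist1h4a and Hist1h4n had 43 to 51 and 73 to 92. Rasgrp3, an exchange factor for Ras, fell from a mean of 72.4 to 31.4 CPM in M0 and had 2 reads without and 11 with DGAT1i in IFNγ + LPS, a ratio of 6.17 with an exact 95% counting interval from 1.35 to 57.3. Without some single libraries the response in IFNγ + LPS missed the threshold. This held for Rasgrp3 without IFNg_LPS replicate 1 or 2 or IFNg_LPS_DGAT1i replicate 1 or 2 (adjusted p = 0.0581 to 0.132) and with DESeq2 (0.0758), for E2f2 without IFNg_LPS replicate 1 or IFNg_LPS_DGAT1i replicate 2 (0.0614 and 0.0746), for Hist1h4a without IFNg_LPS replicate 2 or IFNg_LPS_DGAT1i replicate 1 (0.0622 and 0.0518), for Hist1h4n without IFNg_LPS replicate 2 or 3 or IFNg_LPS_DGAT1i replicate 1 or 2 (0.0598 to 0.162), and for Hist1h3f without any of the 6 libraries of that state (0.0518 to 0.155). Coding sequences of these histone genes are near copies of those of other members of their families, so reads may have been divided among them.

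Of the same direction, the remaining genes named by the rule were Cnn2 and Ppfia4. Cnn2, an actin-binding calponin, fell from 25.7, 30.6 and 19.6 CPM to 14.7, 15.2 and 16.2 CPM in M0 and rose from 7.58, 7.92 and 9.74 CPM to 15.03, 14.6 and 20.8 CPM in IFNγ + LPS. Its difference was 1.70 (SE 0.23, adjusted p = 1.92e-07), and the libraries were apart in both states. Ppfia4, a liprin scaffold protein, had a difference of 1.72 (SE 0.28, adjusted p = 4.73e-06). From the gene lists, Pycard, which encodes the inflammasome adaptor ASC, stood at 69.3, 67.5 and 58.8 CPM in M0 and 52.5, 49.4 and 50.4 CPM with DGAT1i. After IFNγ + LPS it stood at 38.3, 35.3 and 33.0 CPM and rose with DGAT1i to 65.0, 59.0 and 54.4 CPM (difference 1.11, SE 0.12, adjusted p = 2.20e-10). Ndrg1, a gene induced by hypoxia, went from 56.8, 56.9 and 42.7 to 34.4, 37.5 and 36.8 CPM in M0 and from 28.4, 27.9 and 26.8 to 41.4, 50.9 and 41.1 CPM in IFNγ + LPS (difference 1.21, SE 0.14, adjusted p = 7.28e-09), again with no overlap in either state. Abca1, the cholesterol exporter, had a difference of 0.58 (SE 0.08, adjusted p = 5.06e-07). The rise of Abca1 in IFNγ + LPS, 0.21, missed the threshold without IFNg_LPS_DGAT1i replicate 2 (adjusted p = 0.0826).

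**Figure D2:**
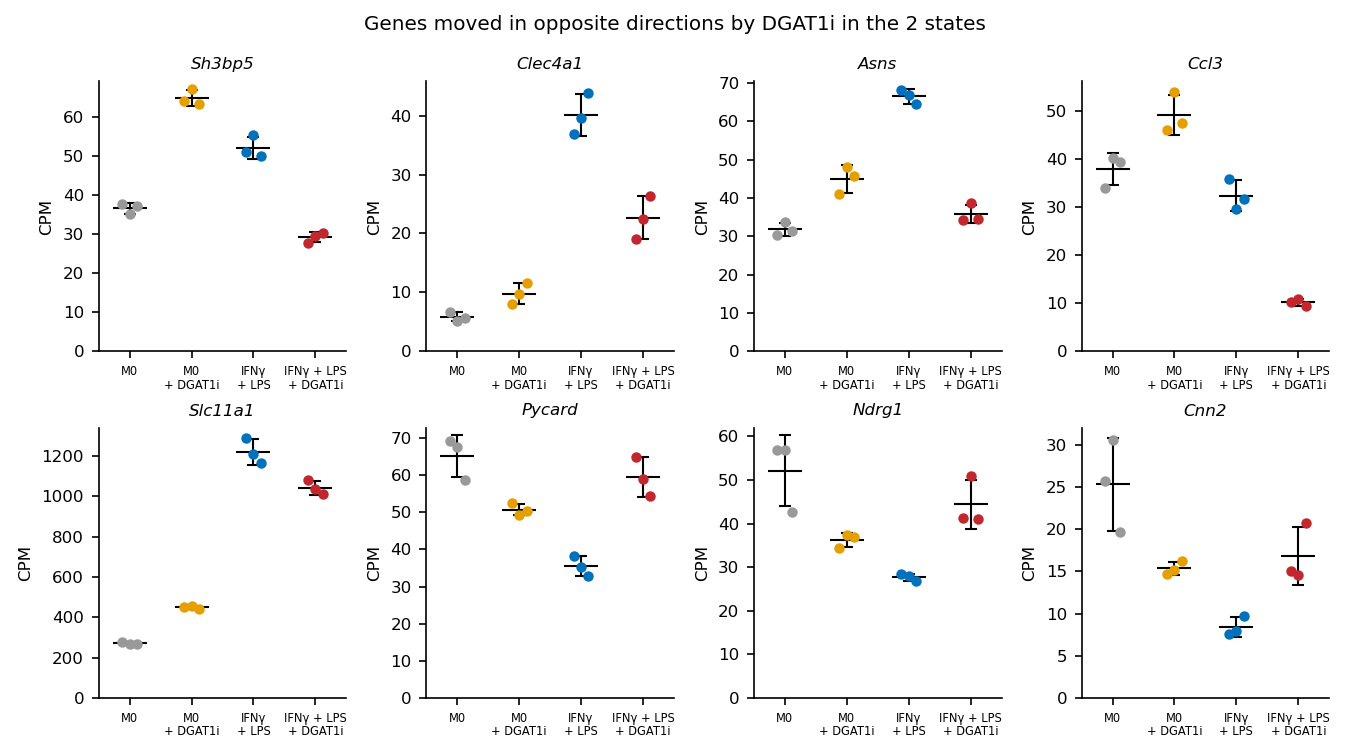
CPM of 8 genes of the opposite class in the 12 libraries (y axes from 0), as points by group, with the mean and SD of 3 libraries in black. Sh3bp5, Clec4a1, Asns, Ccl3 and Slc11a1 were higher with DGAT1i in M0 and lower with it in IFNγ + LPS, and Pycard, Ndrg1 and Cnn2 changed the other way.

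Targets of ATF4 and the tRNA synthetases formed the list with the greatest share of differing responses among the 26 lists examined (67.7%). All 26 lists were chosen with earlier results of these data known, so this ranking is a description and not a test. Of 31 genes tested, 21 had a called difference, and all 21 were lower in IFNγ + LPS than in M0, against 9.8% of all genes. The median response was -0.32 in IFNγ + LPS and 0.15 in M0, beside -0.01 and 0.00 over all genes tested. DGAT1i lowered 20 of the 31 and raised 2 in IFNγ + LPS, whereas in M0 it raised 9 and lowered 2. Of all genes 16.3% fell and 13.5% rose in IFNγ + LPS, and 11% rose and 13.4% fell in M0. Members of the opposite class numbered 6 (Trib3, Asns, Mthfd2, Atf4, Sars and Eprs), 11 responded in IFNγ + LPS only, Atf5 and Slc3a2 responded in M0 only, Psat1 fell in both states, and for Cars only the difference was called.

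The amino acid response element, to which ATF4 binds with a partner, has the core TGATGNAA, where N is any base. This core lay, on either strand, in 8 of 18 RefSeq promoters (GRCm38.p6, 250 bases before to 50 after the start of transcription) of the 16 matched genes among the 21 (44.4%), and in 10 of 27 promoters of the whole list, called or not (37.0%). It lay in 264 of 11398 promoters of the genes tested (2.32%) and in 3.97% of all promoters of the table. Windows of 4 such promoters are shown because their genes carried the difference, and the core is in capitals. In Aars, Gars and Tars it reads on the opposite strand.

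Asns, chr6:7693210-7693257, minus strand: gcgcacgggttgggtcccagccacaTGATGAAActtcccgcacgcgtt
Aars, chr8:111033705-111033762, plus strand: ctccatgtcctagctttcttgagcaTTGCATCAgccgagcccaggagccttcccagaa
Gars, chr6:55037946-55038000, plus strand: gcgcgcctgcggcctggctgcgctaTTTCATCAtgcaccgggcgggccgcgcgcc
Tars, chr15:11399659-11399698, minus strand: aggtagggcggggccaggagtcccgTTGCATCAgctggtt

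Asns, asparagine synthetase, stood at 30.4, 33.7 and 31.3 CPM in M0 and rose to 41.0, 48.1 and 45.8 CPM with DGAT1i. After IFNγ + LPS it stood at 68.2, 67.0 and 64.4 CPM and fell to 34.4, 38.6 and 34.6 CPM with DGAT1i. The responses of 0.50 (SE 0.08) and -0.89 (SE 0.09) differed by -1.39 (SE 0.12, adjusted p = 4.69e-13), and no libraries overlapped in either state. Atf4 itself rose from 116, 123 and 113 to 133, 137 and 148 CPM in M0 and fell from 400.3, 391 and 394 to 299, 288 and 325 CPM in IFNγ + LPS (difference -0.63, SE 0.08, adjusted p = 1.74e-08). Mthfd2, an enzyme of mitochondrial folate metabolism, had responses of 0.64 in M0 and -0.31 in IFNγ + LPS (difference -0.95, adjusted p = 1.50e-09). Trib3, a pseudokinase induced under this stress, rose in M0 from 1.60, 3.995 and 2.78 to 5.58, 10.1 and 6.73 CPM, and fell in IFNγ + LPS from 25.7, 27.9 and 29.2 to 20.0, 21.9 and 20.3 CPM. The fall of Trib3 in IFNγ + LPS missed the threshold without IFNg_LPS replicate 2 or 3 or IFNg_LPS_DGAT1i replicate 1 or 3 (adjusted p = 0.0609 to 0.0831) and with DESeq2 (0.108), while its difference of -1.80 kept its call without each of the 12 libraries. Eprs, a bifunctional tRNA synthetase, lost its call in M0 (adjusted p = 0.0197) without M0 replicate 1 or 3 or M0_DGAT1i replicate 2 or 3 (adjusted p = 0.0544 to 0.178), with DESeq2 (0.130) and with scaling by library size only (0.125), and its call in IFNγ + LPS (adjusted p = 0.0110) without IFNg_LPS replicate 2 or IFNg_LPS_DGAT1i replicate 3 (adjusted p = 0.106 and 0.111).

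The synthetases Aars, Gars and Tars for alanine, glycine and threonine fell in IFNγ + LPS. Aars went from 351, 371 and 343 to 241, 253 and 256 CPM there and stood at 122, 133 and 122 CPM in M0 and 128, 148 and 142 CPM in M0 with DGAT1i. Its response in M0, 0.15, missed the threshold (adjusted p = 0.0535) and passed it without M0 replicate 2, M0_DGAT1i replicate 1 or IFNg_LPS_DGAT1i replicate 1 (0.0149 to 0.0443). Gars and Tars had responses in M0 of 0.04 and -0.01, with 95% intervals from -0.09 to 0.17 and from -0.17 to 0.14. In IFNγ + LPS their responses were -0.46 (adjusted p = 1.94e-07) and -0.49 (adjusted p = 2.30e-05). The Ddit3 gene, which encodes the stress factor CHOP, had responses of 0.05 in M0 and -0.54 in IFNγ + LPS (difference -0.59, adjusted p = 0.000909). Atf5, an ATF4-related factor of mitochondrial stress (chromosome 7 from 44812256 to 44816658), was moved by DGAT1i in M0 alone, from 18.6, 15.4 and 19.5 to 46.1, 41.5 and 43.0 CPM. Its levels in IFNγ + LPS were 28.2, 32.4 and 27.2 CPM without and 30.5, 31.3 and 30.6 CPM with DGAT1i, and these overlapped (difference -1.22, SE 0.15, adjusted p = 5.86e-09). Psat1, a serine synthesis enzyme, fell from 154, 151 and 145 to 69.4, 62.2 and 61.2 CPM in IFNγ + LPS and from 56.4, 58.9 and 53.0 to 30.7, 33.4 and 37.7 CPM in M0. Exons of Ddit3 and of Atf5 overlap those of Mars and Nup62 on the other strand, by 68 and 82 bases. Slc7a11, the cystine transporter, is shared with the NRF2 program and rose in both states, by 1.80 in M0 and 0.58 in IFNγ + LPS. Its difference of -1.22 missed the threshold (adjusted p = 0.0784) and passed it without IFNg_LPS replicate 1 or 2 or IFNg_LPS_DGAT1i replicate 1 (adjusted p = 0.000108 to 0.0194), with DESeq2 (0.000174) and without a filter on low counts (2.16e-07).

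**Figure D3:**
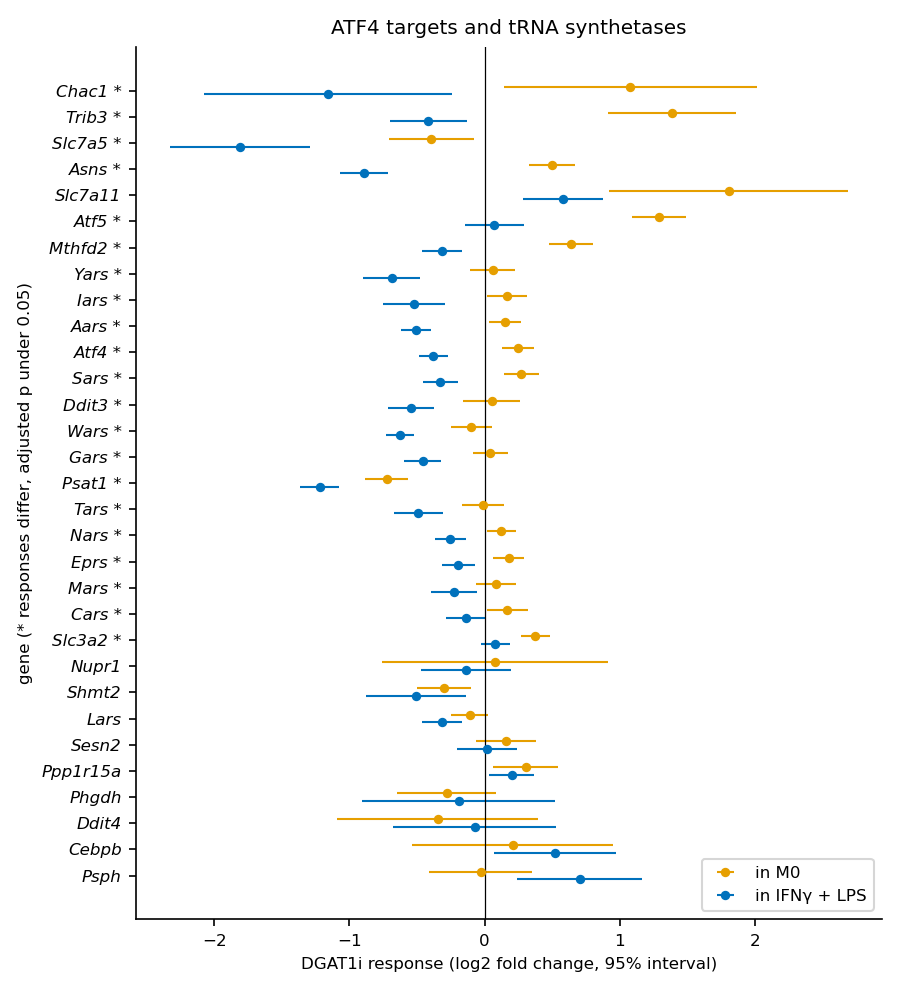
DGAT1i responses of the 31 tested genes of the ATF4 and tRNA synthetase list (x axis, log2 fold change with 95% interval), in M0 and in IFNγ + LPS, ordered by the difference between them. An asterisk marks the 21 genes whose responses differed, and in each of these the response in IFNγ + LPS lies to the left of that in M0.

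Of the genes that fell in IFNγ + LPS and whose response in M0 was not called, those named by the rule encode a protease, a transcription factor, an adhesion receptor, a chemokine and an inhibitory receptor. Mmp13, a collagenase (chromosome 9 from 7272514 to 7283331), fell from 107, 128 and 93.8 to 40.3, 37.5 and 34.8 CPM in IFNγ + LPS and stood at 13.7, 15.05 and 16.8 CPM in M0 and 15.3, 19.9 and 16.9 CPM in M0 with DGAT1i. The response was -1.54 (SE 0.10) against 0.19 (SE 0.14) in M0, a difference of -1.73 (adjusted p = 4.94e-10). Klf4, a transcription factor of monocyte and macrophage differentiation, fell from 124, 145 and 125 to 46.9, 50.7 and 56.3 CPM and was at 9.01, 8.92 and 6.68 CPM in M0 and 7.97, 7.81 and 9.37 CPM with DGAT1i there. Vcam1, a ligand of α4 integrins, and Lair1, an inhibitory collagen receptor, had differences of -1.31 (adjusted p = 0.000438) and -1.27 (adjusted p = 4.75e-15). Lair1 stood at 127, 128 and 136 CPM in M0 and 111, 107 and 98.3 CPM in IFNγ + LPS, where it fell to 41.2, 41.7 and 42.5 CPM with DGAT1i. The 95% interval of its response in M0 ran from -0.18 to 0.06.

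Ccl4 and Ccl3, which draw monocytes and T cells, were the chemokines with the lower response in IFNγ + LPS that rested on the most reads in M0. Ccl4 fell from 16.4, 21.4 and 20.4 to 9.47, 8.97 and 8.64 CPM in IFNγ + LPS. Ccl3 fell there from 35.8, 29.5 and 31.7 to 10.3, 10.8 and 9.34 CPM, and rose in M0 from 34.0, 40.2 and 39.4 to 46.0, 53.8 and 47.4 CPM. The groups did not overlap in either state for Ccl3, and its difference was -2.03 (SE 0.16, adjusted p = 1.80e-14). For the 21 chemokines tested, 6 differences were higher in IFNγ + LPS and 4 lower, 47.6% beside 18.5% of all genes. The other 2 of the 4, Cxcl2 and Ccl5, had 27 and 5 reads over the 3 libraries of M0. For Ccl5 the rise in M0 missed the threshold without any 1 of M0 replicates 1, 2 and 3 and M0_DGAT1i replicates 1 and 2 (adjusted p = 0.0512 to 0.111), with DESeq2 (0.0802) and without a filter on low counts (0.0540), and the difference without M0 replicate 3 or M0_DGAT1i replicate 1 (adjusted p = 0.0614 and 0.0515). For Cxcl2 the fall in IFNγ + LPS missed it without IFNg_LPS replicate 2 or IFNg_LPS_DGAT1i replicate 1 (adjusted p = 0.0726 and 0.117) and with DESeq2 (0.0919). The 6 higher ones included Ccl2, the main CCR2 ligand, which fell in M0 from 46.5, 57.3 and 44.0 to 31.9, 31.1 and 32.3 CPM and had a response of -0.05 in IFNγ + LPS, and Ccl9, which fell in both states (-0.86 in M0, -0.33 in IFNγ + LPS). Among 28 cytokine and inflammasome genes, 2 were higher and 7 lower (32.1%). Tnf fell from 689, 619 and 575 to 437, 368 and 354 CPM in IFNγ + LPS, and stood at 38.4, 40.9 and 32.9 CPM in M0 and 35.5, 39.7 and 36.7 CPM in M0 with DGAT1i (difference -0.69, SE 0.14, adjusted p = 0.00103). Nlrp1b, an inflammasome sensor, fell from a mean of 43.7 to 21.6 CPM there, and its mean in M0 was 44.1 CPM without and 43.2 CPM with DGAT1i. Of 37 genes of the NF-κB and early response list, 3 were higher and 8 lower (29.7%), with Tnfaip3, the feedback inhibitor A20, in the opposite class (0.51 in M0, -0.35 in IFNγ + LPS, adjusted p of the difference 6.99e-10). Its partner Tnip1 fell in IFNγ + LPS by 0.54 on the log2 scale and had a response of 0.06 in M0, while Fosl2, a component of AP-1, rose in IFNγ + LPS by 0.92 and had a response of 0.09 in M0.

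Nr1h3, which encodes the oxysterol receptor LXRα, fell in IFNγ + LPS from 149, 123 and 125 to 58.9, 56.1 and 47.9 CPM. In M0 it stood at 23.2, 13.7 and 20.7 CPM without and 27.6, 23.7 and 22.2 CPM with DGAT1i (difference -1.63, SE 0.21, adjusted p = 4.49e-05). Its response in M0, 0.36, passed the threshold without M0 replicate 1 (adjusted p = 0.0236) and without a filter on low counts (0.00879). Cpt1a, which passes long-chain fatty acids into mitochondria as acylcarnitines, was in the opposite class, from 117, 115 and 130.3 to 145, 157 and 162 CPM in M0 and from 247, 250.4 and 259 to 196, 208 and 206 CPM in IFNγ + LPS (difference -0.67, SE 0.08, adjusted p = 5.82e-09). Msr1, a scavenger receptor for modified lipoproteins, rose from 337, 359 and 375 to 533, 574 and 529 CPM in M0 and fell from 615, 624 and 592 to 543, 505 and 485 CPM in IFNγ + LPS. Trem2, a lipid-sensing receptor, rose in IFNγ + LPS from a mean of 122 to 197 CPM and had a response of -0.08 in M0 (adjusted p = 0.225), which was called with scaling by library size only. Stab1, the scavenger receptor stabilin-1, and Maf, a transcription factor of resident macrophages, fell in IFNγ + LPS from means of 452 and 189 to 279.7 and 122 CPM, and had responses of -0.10 and -0.12 in M0 that were also called under that scaling, for Stab1 also with DESeq2 (adjusted p = 0.0401) and for Maf with DESeq2's size factors in edgeR (0.0415). Itgam, the integrin chain CD11b, fell in IFNγ + LPS from 117, 137 and 135 to 85.0, 88.2 and 82.9 CPM and stood at 154, 161 and 164 CPM in M0 and 173, 163 and 168 CPM in M0 with DGAT1i (difference -0.68, SE 0.09, adjusted p = 2.68e-08). Mertk, a receptor for uptake of apoptotic cells, rose in M0 from 78.5, 65.4 and 70.3 to 113, 107 and 99.8 CPM and had a response of 0.10 in IFNγ + LPS (difference -0.48, SE 0.10, adjusted p = 0.000489). Of the 34 scavenger and lineage receptors, 8 differences were higher and 11 lower (55.9%). Differences were called in lists of lipid metabolism for 2 of 24 genes of cholesterol synthesis, 4 of 20 of TG synthesis and droplets, 3 of 27 of fatty acid oxidation and 3 of 13 of fatty acid synthesis, shares of 8.33%, 20.0%, 11.1% and 23.1% beside 18.5% of all genes. The list of TG synthesis held 2 higher and 2 lower, which became 4 and 2 with scaling by library size only and 0 and 2 with DESeq2, and that of fatty acid oxidation 1 and 2, which became 3 and 2 with scaling by library size only. Fatty acid synthesis held 1 and 2, which became 1 and 1 under both of these. Targets of LXR differed for 7 of 15 (46.7%). Among these, the sterol exporter Abcg1 fell in IFNγ + LPS by 0.31 on the log2 scale with a response of 0.04 in M0, and the desaturase Scd2 rose in both states, from a mean of 35.2 to 87.7 CPM in IFNγ + LPS and from 51.7 to 68.3 CPM in M0 (adjusted p of the difference 2.35e-07). Dgat1 had responses of 0.29 in M0 and -0.01 in IFNγ + LPS, with a 95% interval of the difference from -0.69 to 0.08.

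The genes named by the rule for a rise in IFNγ + LPS only were low in activated cells. Selenbp1, a selenium-binding methanethiol oxidase, rose from 3.79, 2.88 and 3.93 to 14.6, 14.6 and 16.3 CPM, and stood at 12.5, 14.2 and 10.4 CPM in M0 and 12.9, 12.4 and 12.8 CPM in M0 with DGAT1i (difference 2.07, SE 0.25, adjusted p = 5.65e-09). Maged1, a MAGE family adaptor protein, rose from 8.63, 9.72 and 11.8 to 29.6, 33.8 and 33.6 CPM (difference 1.75, SE 0.15, adjusted p = 1.57e-13). Its mean was 66.5 CPM in M0 and 63.2 CPM in M0 with DGAT1i. With DGAT1i the activated level of Selenbp1 lay above that of untreated M0, and that of Maged1 below it. Gprc5c, an orphan G protein-coupled receptor, S1pr1, the sphingosine 1-phosphate receptor, and Egr2, a zinc finger transcription factor, rested on 7, 19 and 26 reads in IFNγ + LPS and on 37, 66 and 61 with DGAT1i. The rise of Egr2 missed the threshold without IFNg_LPS_DGAT1i replicate 1 (adjusted p = 0.0621), and its response in M0 passed it with scaling by library size only (0.0398). The response of S1pr1 in M0 passed it without M0 replicate 3, M0_DGAT1i replicate 1 or IFNg_LPS_DGAT1i replicate 1 or 2 (adjusted p = 0.0209 to 0.0400). Markers of neutrophils were among the genes with called differences. Ngp, a granule protein, rose in IFNγ + LPS from 0.211, 1.98 and 1.87 to 8.44, 8.14 and 10.97 CPM, and S100a8 and S100a9, the calprotectin subunits, from means of 9.13 and 7.78 to 34.5 and 25.8 CPM. In M0 their responses were -0.42, -0.46 and -0.50, none of them called, although that of S100a8 was with scaling by library size only. Without M0_DGAT1i replicate 3 the fall of Ngp in M0 passed the threshold (adjusted p = 0.0294), as did that of S100a9 without IFNg_LPS_DGAT1i replicate 2 (0.0385) or without a filter on low counts (0.0338). S100a6, S100a8 and S100a9 are neighbours on chromosome 3 and formed 1 of 5 runs of at least 3 adjacent tested genes with the same class and direction, 3 of which were runs of histone genes on chromosomes 3 and 13. S100a6, a calcium-binding protein, had a difference of 0.38, which missed the threshold without IFNg_LPS replicate 2 or IFNg_LPS_DGAT1i replicate 1 (adjusted p = 0.0596 and 0.0531).

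Genes that responded in M0 only included Gdf15, Ptger2, Ms4a7 and Ms4a6d, which rose, and cell cycle genes, which fell. Gdf15, a stress-induced cytokine (chromosome 8 from 70629393 to 70632456), rose from 12.9, 15.05 and 10.4 to 37.6, 32.5 and 34.3 CPM in M0. In IFNγ + LPS it stood at 25.9, 28.1 and 20.4 CPM without and 25.3, 26.5 and 27.8 CPM with DGAT1i, which overlap. The responses of 1.44 (SE 0.12) and 0.10 (SE 0.12) differed by -1.34 (adjusted p = 2.17e-08). Ptger2, a receptor for prostaglandin E2, rose in M0 from 5.96, 5.86 and 5.57 to 13.2, 10.6 and 11.1 CPM (difference -1.19, adjusted p = 5.17e-05). Ms4a7 and Ms4a6d, of the MS4A family, rose in M0 by 0.88 and 0.85, and had responses of -0.03 and -0.05 in IFNγ + LPS. Over the family, chosen after its values were seen, 5 of 7 tested genes had a called difference and all 5 were lower in IFNγ + LPS, beside 18.5% of all genes called and 9.8% lower. Ccr2, the receptor for CCL2, fell in M0 from 30.1, 31.8 and 30.2 to 9.56, 9.37 and 13.9 CPM and stood at 10.1, 10.8 and 13.9 CPM in IFNγ + LPS and 8.23, 10.4 and 12.8 CPM with DGAT1i. Cd14, the LPS co-receptor, fell in M0 from 156, 187 and 162 to 89.9, 101 and 103 CPM and had a response of 0.12 in IFNγ + LPS (difference 0.89, SE 0.09, adjusted p = 1.89e-10). Tgfb1, which encodes the cytokine TGF-β1, rose in M0 by 0.35 and had a response of -0.10 in IFNγ + LPS (adjusted p of the difference 6.42e-05). Pnpla2, the TG lipase ATGL, rose in M0 from 54.6, 50.1 and 53.5 to 69.3, 66.6 and 62.8 CPM and went from 100.4, 124 and 102 to 95.3, 97.6 and 101 CPM in IFNγ + LPS (difference -0.48, SE 0.10, adjusted p = 0.000397). That second change was called without IFNg_LPS replicate 1 (adjusted p = 0.0396).

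Genes of cell division fell with DGAT1i in resting cells, and their median levels were lower in activated cells. Without DGAT1i the medians in IFNγ + LPS were 0.764 CPM for mitosis, 5.88 CPM for DNA replication and 3.05 CPM for histone genes. In M0 they were 48.9, 61.1 and 58.4 CPM. All 36 tested genes of mitosis and the spindle fell in M0 (13.4% of all genes did), with a median response of -1.50. In IFNγ + LPS 2 rose, 2 fell and 32 were not called (median response -0.19), and 18 of the 36 were under 1 CPM on average in both groups of that state. The difference was called for 13 of the 36, all higher in IFNγ + LPS (8.66% of all genes). Of 34 genes of DNA replication, 33 fell in M0 and 10 in IFNγ + LPS (16.3% of all genes fell there), and 8 differences were higher and 1 lower, the latter lost with DESeq2's size factors in edgeR and with scaling by library size only. Histone genes, a family grouped after its values were seen, fell in M0 for 53 of 57 tested genes, with 33 differences higher and 2 lower. For genes under 1 CPM in IFNγ + LPS few reads stand behind the response in that state.

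Mki67, the proliferation marker Ki-67, fell in M0 from 457, 508 and 383 to 182, 169 and 186 CPM and stood at 9.90, 11.9 and 8.99 CPM in IFNγ + LPS and 10.9, 11.5 and 10.5 CPM with DGAT1i. Its difference was 1.42 (SE 0.22, adjusted p = 7.37e-05). Cdk1, the mitotic kinase, fell from 91.5, 96.3 and 80.3 to 40.2, 36.1 and 42.4 CPM in M0, and its 95% interval in IFNγ + LPS ran from -0.53 to 0.54. Cenpe, a kinetochore motor, had responses of -1.43 and -0.03. Cenpa, the centromeric histone H3 variant, was in the opposite class, falling in M0 from 55.8, 55.5 and 50.0 to 24.6, 18.7 and 22.6 CPM and rising in IFNγ + LPS from 9.05, 6.84 and 8.05 to 12.4, 10.6 and 15.2 CPM (difference 1.96, SE 0.20, adjusted p = 8.53e-11). The histone genes Hist2h2bb and Hist2h4 fell in M0, with responses of -1.46 and -1.37, and had responses of 0.24 and 0.03 in IFNγ + LPS. The cell cycle homology region, an element of promoters of mitotic genes, has the core TTTGAA, which lay on either strand in 22 of 30 promoters of the mitosis list (73.3%) against 12.2% of promoters of the genes tested. The core of the E2F site, searched as TTTNNCGC, lay in 14 of 34 promoters of the replication list (41.2%) against 8.54%. Windows of 2 mitotic promoters are shown because these genes carried the fall in M0. The first copy of the core in each window is in capitals, and the Mki67 window holds a further copy in lower case.

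Cdk1, chr10:69352953-69353008, minus strand: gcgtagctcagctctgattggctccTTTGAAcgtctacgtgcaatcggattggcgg
Mki67, chr7:135716465-135716520, minus strand: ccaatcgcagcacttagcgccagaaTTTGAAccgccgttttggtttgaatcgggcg

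**Figure D4:**
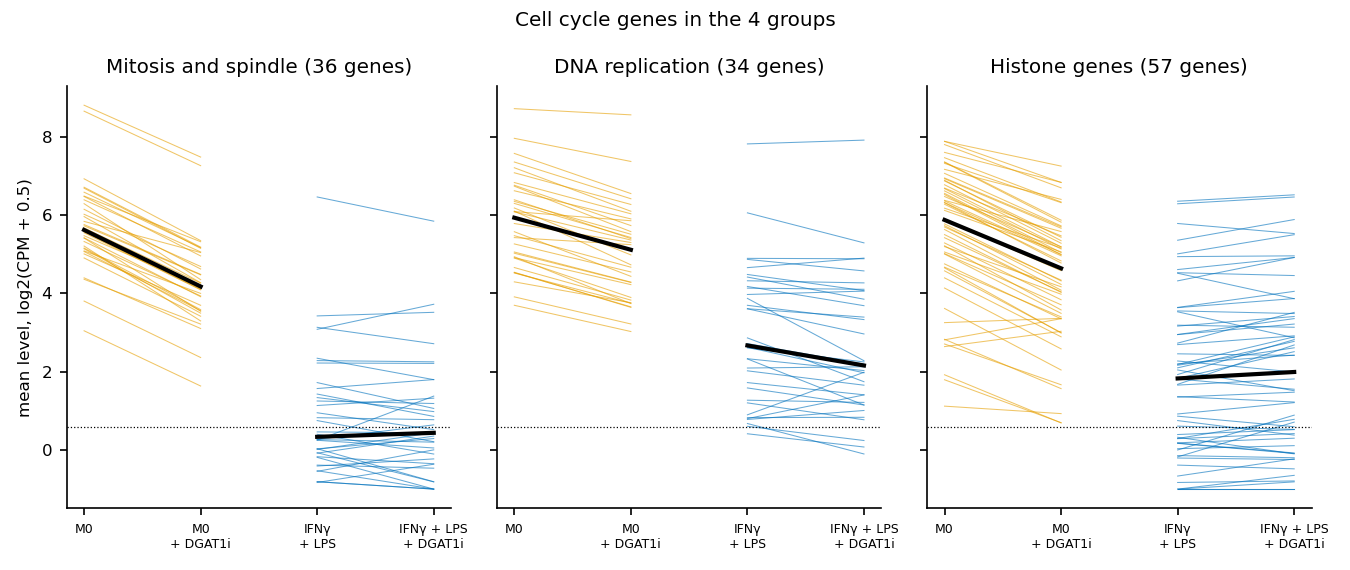
Mean level of each gene in the 4 groups (y axis, log2 of CPM + 0.5, 3 libraries per group) for mitosis, DNA replication and histone genes, with thin lines joining the groups without and with DGAT1i in each state, thick black lines joining the medians and a dotted line at 1 CPM. All 36 mitosis genes slope down in M0, and 18 of them lie under the dotted line in both groups of IFNγ + LPS.

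Most genes of the NRF2 program rose with DGAT1i in each state, and many of them by different amounts. Of 30 NRF2 and glutathione genes, 20 rose in IFNγ + LPS and 19 in M0, with median responses of 0.42 and 0.54, beside 13.5% and 11% of all genes that rose. The difference was called for 19 (63.3%, beside 18.5% of all genes), with 7 higher and 12 lower in IFNγ + LPS, and 12 of the 30 belonged to the class of same direction and different size. Heme oxygenase 1 (Hmox1) rose more in IFNγ + LPS, from 3306, 3354 and 3737 to 10686, 10906 and 11207 CPM, against 406, 391 and 446 to 989, 1068 and 1084 CPM in M0 (difference 0.32, SE 0.08, adjusted p = 0.00204). So did the heme transporter Slc48a1, with responses of 1.14 and 0.68, and the iron exporter ferroportin (Slc40a1), from 59.4, 61.0 and 65.4 to 265, 255 and 263 CPM in IFNγ + LPS and from 112, 103 and 128 to 287, 273 and 238 CPM in M0 (difference 0.86, SE 0.10, adjusted p = 2.68e-08). The means of Slc40a1 were 114 CPM in M0 and 61.9 CPM in IFNγ + LPS without, and 266 and 261 CPM with DGAT1i.

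Other NRF2 targets rose more in M0. Gclm, the regulatory subunit of the first enzyme of glutathione synthesis, rose from 46.9, 44.6 and 48.3 to 131, 133 and 128 CPM in M0 and from 274, 257 and 277 to 545, 502 and 487 CPM in IFNγ + LPS (difference -0.56, SE 0.08, adjusted p = 7.86e-07). Peroxiredoxin 1 (Prdx1), catalase (Cat) and ferritin heavy chain (Fth1) had differences of -0.57, -0.43 and -0.60, each called. For ferritin light chain (Ftl1) the responses were 0.57 and 0.47, with a 95% interval of the difference from -0.25 to 0.05. Prdx1 and Ftl1 have near-identical copies with reads of their own, so their counts are uncertain to that extent. G6pdx, the enzyme that feeds NADPH to glutathione reduction, was in the opposite class (0.19 in M0, -0.25 in IFNγ + LPS, adjusted p of the difference 5.41e-06), and 13.6% of its exon bases overlap Ikbkg on the other strand. Among iron genes, the transferrin receptor Tfrc fell in IFNγ + LPS from 76.6, 59.6 and 75.1 to 38.1, 30.7 and 26.4 CPM and stood at 244, 271 and 287 CPM in M0 and 289, 289 and 268 CPM in M0 with DGAT1i (difference -1.21, SE 0.15, adjusted p = 7.74e-06). Slc11a1, the phagosomal metal transporter NRAMP1, rose from 276, 266 and 269 to 452, 454 and 442 CPM in M0 and fell from 1287, 1211 and 1163 to 1080.3, 1036 and 1009 CPM in IFNγ + LPS (difference -0.96, SE 0.07, adjusted p = 1.99e-15).

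Among the genes of the same direction named for a larger response in IFNγ + LPS was P4ha2, a collagen prolyl hydroxylase. It rose from 9.26, 7.38 and 7.49 to 40.6, 40.3 and 40.4 CPM in IFNγ + LPS and from 10.6, 12.3 and 9.61 to 14.7, 19.0 and 14.0 CPM in M0 (difference 1.79, SE 0.20, adjusted p = 8.92e-10). Fgd2, an exchange factor for Cdc42, and Sla, an adaptor of receptor signalling, fell more in IFNγ + LPS, with responses of -1.83 and -1.91 against -0.29 and -0.51 in M0. The fall of Fgd2 in M0 missed the threshold without M0 replicate 1 or M0_DGAT1i replicate 2 (adjusted p = 0.0576 and 0.1001) and with DESeq2 (0.0723). Clec4n, the fungal receptor Dectin-2, rose more in M0, from 1.45, 1.20 and 1.39 to 8.63, 6.39 and 6.20 CPM, than in IFNγ + LPS, from 45.9, 45.5 and 54.1 to 121, 91.8 and 96.2 CPM (difference -1.29, SE 0.30, adjusted p = 0.00143). Ptges, a prostaglandin E synthase, had 8 reads in M0 and 38 with DGAT1i, and responses of 2.15 and 0.28. Its rise in IFNγ + LPS missed the threshold without IFNg_LPS replicate 1, 2 or 3 or IFNg_LPS_DGAT1i replicate 1 or 2 (adjusted p = 0.0702 to 0.192), with DESeq2 (0.195), with scaling by library size only (0.0553) and without a filter on low counts (0.129), and its difference without M0_DGAT1i replicate 3 (0.0625). For Ccnf, cyclin F, responses were -1.46 in M0 and -0.64 in IFNγ + LPS. The second missed the threshold without IFNg_LPS replicate 2 or IFNg_LPS_DGAT1i replicate 1 or 2 (0.0504 to 0.124) and with DESeq2 (0.0543), and the difference without IFNg_LPS_DGAT1i replicate 2 or 3 (0.0591 and 0.0581).

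Genes of MHC class I presentation had lower responses in IFNγ + LPS than in M0 wherever the difference was called. Of 19 genes of MHC class I and the immunoproteasome, 15 fell and 1 rose in IFNγ + LPS, while 3 fell and 5 rose in M0. Beside these stand 16.3% and 13.5% of all genes that fell and rose in IFNγ + LPS, and 13.4% and 11% in M0. The 10 called differences (52.6%) were all lower in IFNγ + LPS, against 9.8% of all genes, and the 8 to 9 called under the other scalings and DESeq2 were lower too. B2m, the invariant light chain, rose from 940.3, 986 and 1007 to 1039.6, 1169 and 1131 CPM in M0 and fell from 5832, 6449 and 5866 to 5283, 5212 and 5384 CPM in IFNγ + LPS (difference -0.38, SE 0.08, adjusted p = 0.000139). Its rise in M0 missed the threshold without M0 replicate 1 or M0_DGAT1i replicate 2 (adjusted p = 0.0683 and 0.0768) and with scaling by library size only (adjusted p = 0.0613). The heavy chain H2-K1 rose in M0 by 0.26 and had a response of -0.08 in IFNγ + LPS (adjusted p of the difference 0.000446). Of 34 type I interferon-stimulated genes 21 fell and 2 rose in IFNγ + LPS, beside 16.3% and 13.5% of all genes, and 4 differences were called (11.8%, below the 18.5% of all genes). These 4 were lower in IFNγ + LPS, but scaling by library size only gave 1 higher and 3 lower and DESeq2 1 higher and 2 lower. Among the 4 Ifih1, the RNA sensor MDA5, was in the opposite class (0.21 in M0, -0.43 in IFNγ + LPS, adjusted p of the difference 5.83e-07). Its rise in M0 missed the threshold without M0 replicate 1, 2 or 3 or M0_DGAT1i replicate 2 or 3 (adjusted p = 0.0517 to 0.257) with each other scaling tried, with DESeq2 (0.139) and without a filter on low counts (0.0734). For the guanylate-binding proteins and immunity-related GTPases, 13 of 17 fell in IFNγ + LPS and 1 of 17 in M0. For 1 of these genes the difference was called (5.88%), but not with scaling by library size only. Their median level in M0 was 0.753 CPM, where counting error limits the precision of the response. Of 14 MHC class II genes 1 difference was called (7.14%), and 2 were with DESeq2.

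In 4 lists of organelle genes the share of called differences was between 18.9% and 22.9%, beside 18.5% of all genes. It was 18.9% of 37 respiratory chain subunits (0 higher and 7 lower) and 22.7% of 22 mitochondrial chaperones and proteases (0 higher and 5 lower), where 8.66% of all genes were higher and 9.8% lower. It was 22.9% of 48 cytosolic ribosomal proteins and 19.4% of 36 lysosomal genes. Atp5b, the β subunit of ATP synthase, fell in IFNγ + LPS from 1098, 1032 and 1033 to 798, 714 and 745 CPM and had a response of -0.07 in M0 (difference -0.42, SE 0.07, adjusted p = 1.54e-05). Of the ribosomal proteins 9 were higher and 2 lower, counts that became 14 and 1 with scaling by library size only. Of the lysosomal genes 20 rose in M0 and 11 in IFNγ + LPS, beside 11% and 13.5% of all genes, and 1 difference was higher and 6 lower. Of 30 genes of glycolysis and hypoxia 7 were higher and 3 lower (33.3%), with lactate dehydrogenase A (Ldha) at responses of 0.34 in IFNγ + LPS and 0.08 in M0 (adjusted p of the difference 0.00623). The ER chaperone list held 3 higher and 3 lower of 27, the LXR list 2 and 5 of 15, the prostaglandin list 4 and 4 of 19, the iron list 4 and 5 of 18, and the RNAs encoded in mitochondria 0 and 3 of 9. With scaling by library size only the ER chaperone list held 5 higher and 2 lower and the iron list 6 and 4. With DESeq2 the ER chaperone list held 3 and 1, the prostaglandin list 2 and 3, and the respiratory chain 0 and 4.

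**Figure D5:**
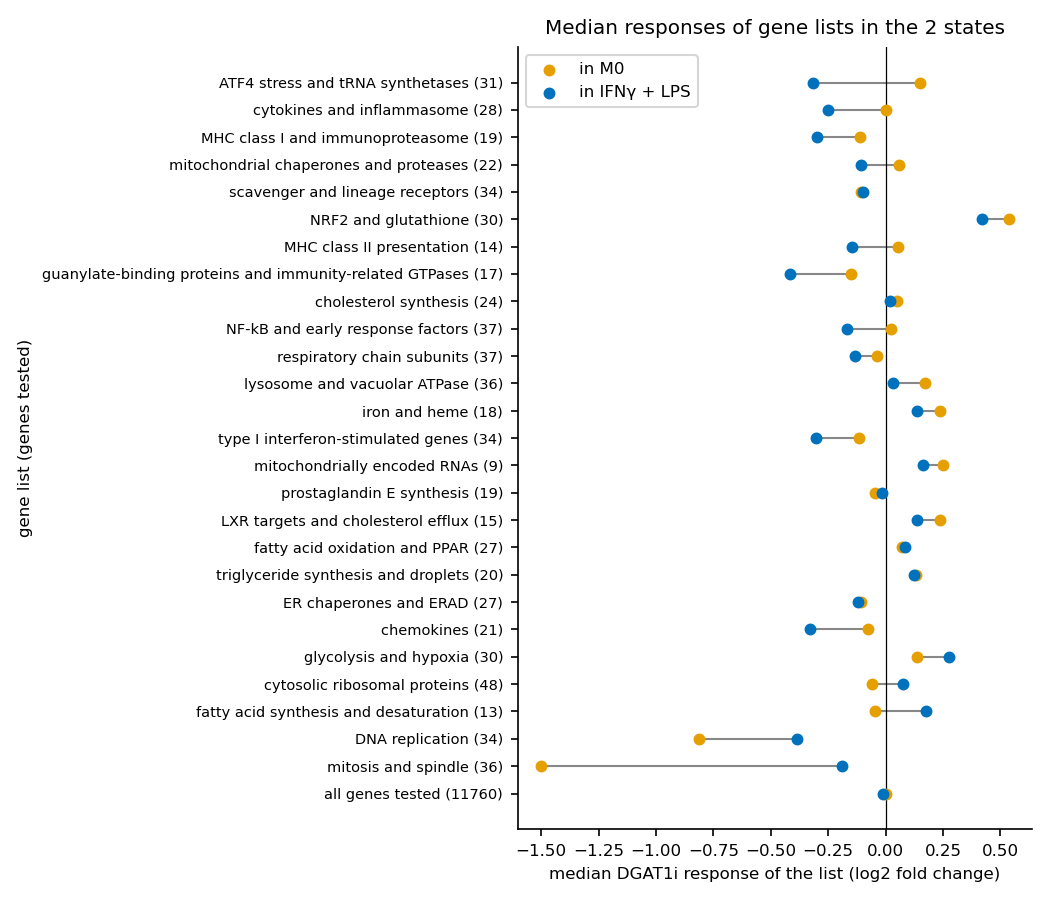
Median DGAT1i response of each of 26 gene lists and of all genes tested (x axis, log2 fold change), in M0 and in IFNγ + LPS, with the number of genes tested in brackets and lists ordered by their median difference. The ATF4 list has medians of 0.15 in M0 and -0.32 in IFNγ + LPS, the mitosis list -1.50 and -0.19, and all genes tested lie near 0 in both states.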

How the data were processed

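RNA of 12 libraries was sequenced in 4 groups of 3. The authors deposited raw read counts per gene, mapped and counted with the snakePipes workflow; their processing notes name GRCm38. The sources used here give no aligner, annotation release or strand setting. Read counts carry no molecular identifiers. The exact counting interval given for Rasgrp3 covers counting error only. The 95% intervals of responses and differences come from the edgeR fit and include the spread between libraries. They rest on the SE, which was taken as the absolute log2 fold change divided by the square root of the test's F statistic. Of 47937 genes in the table, 11760 passed edgeR's filterByExpr. Libraries were scaled by TMM and fitted with edgeR 4.0.16 (glmQLFit, robust, 1 mean per group over all 12 libraries), and responses and their difference were tested by glmQLFTest with Benjamini-Hochberg adjustment at 0.05. The steps were run on simulated counts in which each gene had the same starting level in M0 and in IFNγ + LPS. Genes nearly silent in a single state were therefore not covered. Promoters came from RefSeq tables. Symbols were matched through Ensembl gene identifiers, and gene coordinates, exon overlaps and near-identical copies came from a GENCODE annotation. The members, the 26 gene lists and the tests were chosen with earlier results of these data known. Named genes were those with the largest smaller response (opposite class) or the largest difference (other classes), at a mean log2 CPM of 3 or more, whose libraries did not overlap in any state that responded, plus members of the lists. For genes called in a single state, the 95% interval of the other response had also to lie within 1.5-fold. Alternatives were other scalings, filters and thresholds, DESeq2 1.42.0, a replicate block and each library left out.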

Additional observations from a re-analysis of the deposited data

Results flagged for a closer look

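The genes below had a called difference between their DGAT1i responses in the 2 states, by edgeR's test of the interaction term, and were named by the stated rule. The value after each gene is the difference, the log2 response in IFNγ + LPS minus that in M0. Among genes that rose in IFNγ + LPS and fell in M0 these were Hmmr (3.04), Rasgrp3 (3.66), Hist1h3f (2.61), Hist1h4a (2.08), Hist1h4n (1.90), Cnn2 (1.70), Ppfia4 (1.72) and E2f2 (1.98). Genes with the reverse pattern were Sh3bp5 (-1.66), Clec4a1 (-1.57), Klra2 (-1.61), Itgal (-1.69), Ms4a6c (-1.29), Hist3h2a (-1.23), Arl5c (-1.52) and Ms4a6b (-1.29). Of genes that responded in IFNγ + LPS and not in M0, Gprc5c (2.61), Selenbp1 (2.07), Maged1 (1.75), S1pr1 (1.75) and Egr2 (1.62) rose and Mmp13 (-1.73), Klf4 (-1.40), Vcam1 (-1.31), Ccl4 (-1.30) and Lair1 (-1.27) fell. Of those that responded in M0 and not in IFNγ + LPS, Gdf15 (-1.34), Atf5 (-1.22), Ptger2 (-1.19), Ms4a7 (-0.91) and Ms4a6d (-0.90) rose and Hist2h2bb (1.70), Mki67 (1.42), Hist2h4 (1.40), Cenpe (1.39) and Ccr2 (1.33) fell. With the same direction in both states, the response was larger in IFNγ + LPS for P4ha2 (1.79), Fgd2 (-1.54) and Sla (-1.40) and larger in M0 for Ptges (-1.87), Clec4n (-1.29) and Ccnf (0.82).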

How the results depend on the processing

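With DESeq2 the count of lower differences was 741 (1152 with edgeR), the opposite class held 163 genes (276 with edgeR, 155 shared) and the class of same direction 105 (161 with edgeR). At an adjusted p under 0.1 the opposite class held 418 genes. The cause was not tested. Every one of the 276 opposite genes kept the signs of its fitted responses under each alternative. Library-size scaling gave 1229 higher and 882 lower differences, and shifted the median response in M0 by -0.06. Leaving out each library gave 1881 to 2160 differences (869 to 982 higher, 1005 to 1178 lower), 213 to 260 opposite genes, 850 to 1017 and 465 to 599 genes called in IFNγ + LPS only and in M0 only, 116 to 156 of the same direction, and 2916 to 3567 and 2270 to 3017 responses in IFNγ + LPS and in M0. With the replicate number as a block, 2268 differences were called, and the classes held 307 opposite genes, 1070 and 605 genes called in 1 state and 175 of the same direction. Correlations of deviations between libraries with the same number ran from -0.02 to 0.07 over 18 pairs, none over 0.1, so the libraries were treated as sharing only a number, although 9 of 12 correlated best with their own number. The block also called the M0 responses of Aars (adjusted p = 0.0379), Nr1h3 (0.0104), S1pr1 (0.0378) and S100a9 (0.0201) and the difference of Slc7a11 (6.99e-06). Of 101 named genes with a called difference, 97 kept the call and direction in every alternative, 4 lost the call in at least 1, and 0 reversed. This count covers the difference only, for genes partly picked for large differences. The class of a gene also depends on the calls of both responses and changed more often. Ifih1 changed class in 4 of 6 other ways of processing and without 5 of 12 libraries, and Hist1h3f without 6 of 12. Sh3bp5 and Asns kept their class in all of these. Depth limits responses of genes with few reads in 1 state, such as mitosis genes in IFNγ + LPS.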
